A study of Mus musculus with 12 samples.

Results

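Genes of the Wnt signalling pathway were followed in whole embryonic mouse lungs kept as explants, at the start of culture and after 2 days with or without mechanical restriction of growth. Members were chosen by symbol: every gene named Wnt, Fzd, Sfrp (1, 2, 4 and 5), Dkk (1 to 4) or Rspo (1 to 4), and 19 further genes for receptors, ligand processing, feedback and transcription. The rule found 60 genes among the 24421 symbols of the count table, with 19 Wnt ligands, 12 receptors, 10 secreted antagonists, 7 R-spondins and Lgr receptors and 12 genes of the other roles. All lungs came from wild type CD-1 mouse embryos, were isolated at embryonic day 12.5 and were embedded in Matrigel at an air-liquid interface. Each of the 3 groups holds 4 libraries. Day 0 lungs were taken 1 day after isolation. Day 2 control lungs were kept for 2 more days in a 20% solution of PEG-HCC, a light-crosslinkable polyethylene glycol, that was left uncrosslinked. For the Day 2 compression lungs the same polymer was crosslinked with a two-photon laser into a stiff wall around the organ. The series title names congenital diaphragmatic hernia, in which the lung grows under pressure from displaced abdominal organs. Explants have no blood flow, and separate embryos are not named for the replicates, so p-values measure only the spread between these samples, which may be technical.

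Wnt proteins are secreted lipid-modified ligands. Porcn attaches the lipid and Wls carries the ligand to the cell surface, where Frizzled receptors bind it together with the co-receptors Lrp5 and Lrp6. In the canonical branch the signal stabilises beta-catenin, encoded by Ctnnb1, which joins TCF/LEF factors on target genes such as Axin2. Several targets are themselves inhibitors: Axin2, Nkd1, Znrf3, Rnf43 and Notum all dampen the signal. In the developing lung, Wnt2 and Wnt2b from the mesenchyme and its covering are needed to specify the organ, Wnt7b comes from the epithelium and acts on the mesenchyme, and Wnt5a, mostly a non-canonical ligand, helps to shape the growing tips.

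Library totals ran from 13979871 to 33249761 counts. Lung markers were present in every library: the summed level of Nkx2-1, Sftpc, Tbx4, Tbx5 and Foxf1 was 858 to 899 CPM in Day 0 lungs, 1148 to 1480.1 in control lungs and 1366 to 1939 in compressed lungs. CPM here relate counts to library sizes scaled by TMM. Control replicate 4 stood apart through liver transcripts, with 1469.8 CPM summed over 6 liver genes against at most 17.3 in the other 11 libraries. The descriptions of compression replicates 2 and 3 share 1 number, so both may come from 1 source, and results were also computed with the pair summed and without each library. Markers of other cell types moved over culture: 6 endothelial markers summed to 258 to 432 CPM at Day 0 and 44.4 to 89.2 in controls, while 9 epithelial markers summed to 995 to 1109.9 and 1550.3 to 1775. In bulk RNA, a change in the number of cells that express a gene cannot be told apart from a change in RNA per cell.

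Of the 60 genes, 48 passed the filter on low counts (at least 10 counts, scaled to library size, in as many libraries as a group holds). The other 12 were 9 ligands (Wnt1, Wnt3, Wnt3a, Wnt6, Wnt8a, Wnt8b, Wnt9b, Wnt10a and Wnt16) and the antagonists Sfrp4, Sfrp5 and Dkk4, and none of them averaged over 0.393 CPM in any group. Wnt1, a ligand of the neural tube, had no count in any library, and Wnt8a and Dkk4 had none at Day 0 or in controls. A group total of 0 allows up to 3 counts, or 0.0324 CPM at Day 0, 0.0285 in controls and 0.0260 under compression, for counting error only. Wnt3a, a canonical ligand, had no count at Day 0, 19 counts over the controls and 14 under compression, and control replicate 3 held the highest level at 0.476 CPM.

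Levels of different genes were compared only per length, as CPM divided by the kilobases of annotated exon. On that scale the most abundant ligand at Day 0 was Wnt2 at 40.5 CPM per kb, followed by Wnt7b at 25.3, Wnt11 at 8.12 and Wnt5a at 7.61. Wnt5b (4.2), Wnt2b (4) and Wnt4 (3.01) formed the next level, Wnt9a stood at 1.11, and Wnt7a at 0.168. Among Frizzled receptors at Day 0, Fzd2 (51.6), Fzd7 (42.1) and Fzd1 (41.7) led, and Fzd7 and Fzd1 did not differ beyond the spread between libraries. The remaining Frizzled genes stood between 0.79 (Fzd9) and 8.27 (Fzd3). Sfrp2 (41.7) and Sfrp1 (34.9) were the highest antagonists and Tcf7 (40.3) and Tcf7l1 (24.2) the highest TCF/LEF genes, while Ctnnb1 reached 222 CPM per kb. The lengths are approximate, since the authors' own annotation was not given in the sources used here.

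Controls were first set against Day 0, a comparison in which 2 days of unrestricted culture and the polymer solution cannot be told apart. Of the 48 genes tested, 15 rose (31.2%) and 10 fell (20.8%), against 22.6% and 17.7% of all genes tested. The median log2 fold change of the 48 was -0.09, beside 0.02 over all genes. The groups did not overlap for 10 members that were higher and 11 that were lower, against 20.4% and 17.4% of all genes. Adjusted p-values are from edgeR's quasi-likelihood test with Benjamini-Hochberg adjustment over 15246 genes. The ligand genes changed in opposite directions, with 5 of 10 higher and 2 lower, against 22.6% and 17.7% of all genes.

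Wnt7a, a ligand close in sequence to Wnt7b (chromosome 6, 91363981 to 91411363, minus strand, GRCm38), showed the largest rise of the 48. Its 4 Day 0 libraries stood at 0.642, 0.64, 0.458 and 0.389 CPM, the controls at 3.38, 6.31, 9.68 and 10.8 and the compression libraries at 4.33, 8.74, 8.21 and 11.1. All 8 Day 2 libraries lay above all Day 0 libraries, and within each Day 2 group replicate 1 was the lowest. The mean went from 0.532 ± 0.129 CPM (SD, n = 4) to 7.54 ± 3.36 in controls, a 14.4-fold rise (log2 fold change 3.84, SE 0.42, adjusted p = 1.62e-05), from 47 counts in all at Day 0. Wnt7b (chromosome 15, 85535437 to 85582473, minus strand) moved the other way. Its levels were 115, 138, 126 and 116 CPM at Day 0 and 63, 80.3, 90.3 and 78.7 in controls, with no overlap, and it fell 1.58-fold (log2 fold change -0.66, SE 0.11, adjusted p = 0.000258). Per kb, Wnt7a amounted to 0.00664 of the Wnt7b level at Day 0, 0.145 ± 0.0557 in controls and 0.132 ± 0.0373 under compression. Over the same interval 8 of 9 epithelial markers rose (88.9%, against 22.6% of all genes), while Wnt7b fell. Among these markers were Cdh1 (1.02, adjusted p = 2.26e-06) and Epcam (0.47, adjusted p = 9.49e-05). Their part in either ligand's change was not tested.

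Wnt2, the main mesenchymal ligand of the early lung (chromosome 6, 17988940 to 18030585, minus strand), stood at 99.1, 99.96, 92.4 and 74 CPM at Day 0, 55.3, 66, 73.8 and 66.7 in controls and 60.6, 66.6, 61.1 and 58.6 under compression. Every Day 2 library was below every Day 0 library, although the highest control and the lowest Day 0 library were 73.8 and 74 CPM. Wnt2 fell 1.4-fold in controls (log2 fold change -0.48, SE 0.10, adjusted p = 0.00198). The non-canonical ligand Wnt5a (chromosome 14, 28504750 to 28527448, plus strand) stood at 67.7, 60.7, 52.4 and 57.4 CPM at Day 0 and 103, 92, 86.9 and 87 in controls, and it rose 1.55-fold without overlap (log2 fold change 0.63, SE 0.08, adjusted p = 3.61e-05). Wnt9a, at 5.6, 3.77, 2.66 and 2.78 CPM at Day 0 and 5.95, 7, 5.95 and 6.57 in controls, rose 1.72-fold (log2 fold change 0.78, SE 0.20, adjusted p = 0.00716). Wnt4, a ligand of kidney, gonad and lung mesenchyme (0.56, adjusted p = 0.0207) and Wnt11, a non-canonical ligand (0.48, adjusted p = 0.0444), rose as well, with overlapping groups. The Wnt4 call was lost without Day 0 replicate 1 or 4 or control replicate 1 or 2, up to an adjusted p of 0.0754, and with limma-voom. The Wnt11 call was lost in 7 of 12 omissions of 1 library, namely Day 0 replicates 3 and 4, control replicates 1 and 2 and compression replicates 2, 3 and 4, up to 0.137. It was also lost with RLE scaling, without a filter, in the 8 libraries compared and with compression replicates 2 and 3 summed. Wnt2b (-0.16), Wnt5b (-0.26) and Wnt10b (0.21) did not pass, at adjusted p-values of 0.516, 0.0813 and 0.75. Of 8 mesenchymal markers 4 fell over the same interval (50%, against 17.7% of all genes), among them Pdgfra (-0.63, adjusted p = 0.00201) and Foxf1 (-0.48, adjusted p = 0.00112). The other 4 were not called. Summed, the 8 markers stood at 5983 to 7177 CPM at Day 0 and 5524 to 7191 in controls, which overlap. Their part in the Wnt2 change was not tested.

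**Figure D1:**
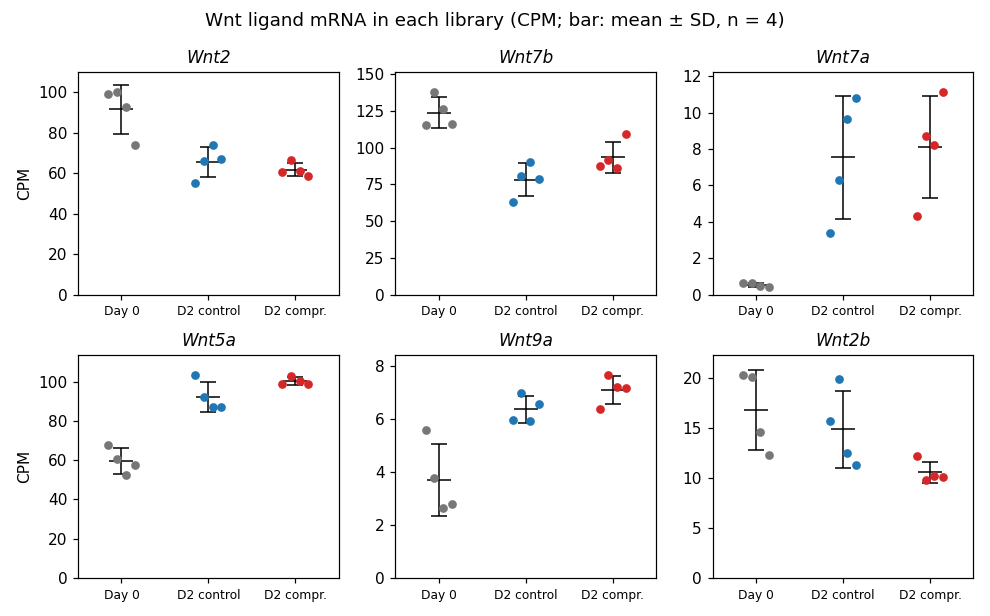
CPM of 6 Wnt ligand genes (vertical axes, each from 0) in the 12 libraries by group (horizontal axes), with points for libraries and bars for mean ± SD (n = 4). Wnt2 and Wnt7b lie lower and Wnt7a, Wnt5a and Wnt9a higher in all control libraries than in all Day 0 libraries, and the Wnt2b groups at Day 0 and in controls overlap.

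Summed per kb over the 19 ligand genes, ligand mRNA amounted to 94.4 ± 10.6 CPM per kb at Day 0, 84.2 ± 4.85 in controls and 85.8 ± 3.48 under compression. The shares of single ligands in that sum were as follows. Wnt2 made up 42.9% ± 2 at Day 0 and 34.4% ± 2.9 in controls, and Wnt7b 26.9% ± 2.46 and 18.9% ± 2. The share of Wnt5a was 8.1% ± 0.885 at Day 0 and 14.1% ± 1.82 in controls, that of Wnt11 8.51% ± 1.56 and 13.4% ± 2.64. Wnt7a accounted for 0.176% ± 0.025 at Day 0 and 2.81% ± 1.26 in controls. Under compression the shares were 32% ± 1.94 for Wnt2, 22.2% ± 1.84 for Wnt7b and 15% ± 0.578 for Wnt5a.

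**Figure D2:**
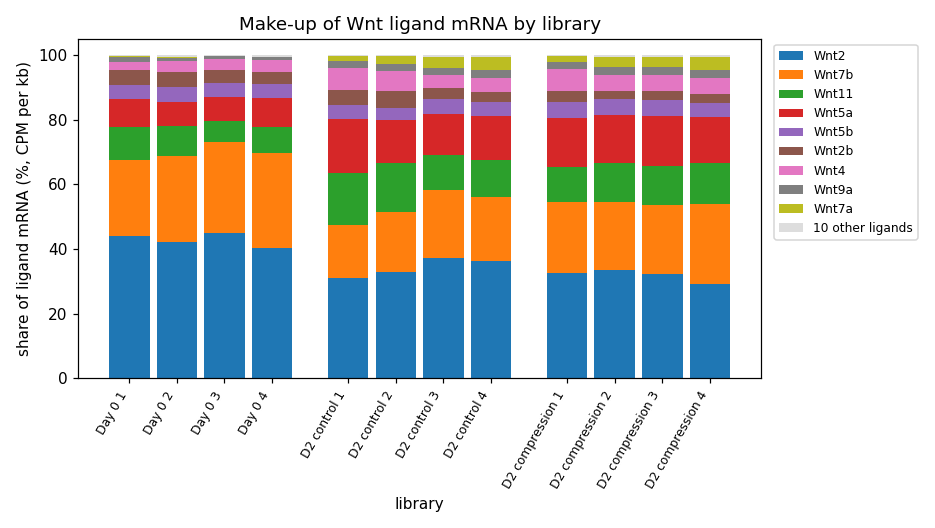
Share of each Wnt gene in the ligand mRNA of a library (vertical axis, percent of the summed CPM per kb of exon) for the 12 libraries (horizontal axis). Wnt2 and Wnt7b together fill less of the Day 2 bars than of the Day 0 bars, and Wnt5a and Wnt7a fill more.

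Of the 2 genes of ligand processing 1 rose, where 22.6% of all genes did. Wls, the carrier of lipid-modified Wnt proteins, stood at 230.01, 216, 224 and 219.8 CPM at Day 0 and 289, 302, 277 and 281 in controls, and rose without overlap (log2 fold change 0.37, SE 0.06, adjusted p = 0.00018). Porcn, the acyltransferase, averaged 12.3 ± 1.43 and 9.82 ± 1.24 CPM and did not pass (-0.32, adjusted p = 0.0596). Its adjusted p was below 0.05 with DESeq2, limma-voom and RLE scaling, and in 4 of 12 omissions.

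Of 12 receptor genes 4 rose and 1 fell in controls (33.3% and 8.33%, against 22.6% and 17.7% of all genes). Fzd5 (0.58, adjusted p = 0.000719) and Fzd8 (0.50, adjusted p = 0.00211), which encode closely related receptors, and Fzd6 (0.47, adjusted p = 0.0131), a receptor linked to planar polarity, rose about as much as Fzd1 (0.47, adjusted p = 0.035). The Fzd6 call was lost without Day 0 replicate 1 (adjusted p = 0.0513). The Fzd1 call was lost in 8 of 12 omissions (Day 0 replicates 1, 2 and 3, control replicates 2, 3 and 4, compression replicates 2 and 3), up to 0.119, and also without a filter and with compression replicates 2 and 3 summed. Fzd9 fell 3.41-fold, from 1.67, 2.7, 1.28 and 1.59 CPM at Day 0 to 0.611, 0.48, 0.611 and 0.319 in controls (log2 fold change -1.77, SE 0.30, adjusted p = 0.000362), and was the largest fall of the 48 at a level near 1 CPM. The abundant receptors Fzd2 (-0.22) and Fzd7 (-0.14) and the co-receptors Lrp5 (-0.11) and Lrp6 (-0.08) did not pass, at adjusted p-values from 0.113 to 0.504. The 95% interval of Lrp6 ran from -0.27 to 0.11 and that of Lrp5 from -0.32 to 0.09.

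R-spondins are secreted proteins that bind Lgr4, Lgr5 and Lgr6 and so keep the ligases Znrf3 and Rnf43 from removing Frizzled receptors. Of these 7 genes 1 rose and 3 fell, against 22.6% and 17.7% of all genes. Lgr4 stood at 41.2, 33.7, 30.8 and 32.3 CPM at Day 0 and 21.9, 24.9, 20.9 and 20.5 in controls, without overlap (log2 fold change -0.64, SE 0.11, adjusted p = 0.000384). Lgr5, also a Wnt target, was at 5.39, 5.83, 5.96 and 6.53 CPM at Day 0 and 4.7, 2.92, 2.99 and 2.68 in controls (log2 fold change -0.83, SE 0.21, adjusted p = 0.00738), with control replicate 1 above the other controls. Rspo2, which the branching lung needs, went from 48.4 ± 5.81 to 32.8 ± 1.18 CPM (log2 fold change -0.56, SE 0.11, adjusted p = 0.00134). Rspo3 was the member that rose, from 8.08, 7.9, 6.69 and 6.68 CPM at Day 0 to 9.07, 15.7, 9.41 and 9.64 in controls (log2 fold change 0.59, SE 0.17, adjusted p = 0.0141), and control replicate 2 was its highest library. Without that library the log2 fold change was 0.34. Rspo1 (-0.16, adjusted p = 0.425), Lgr6 (0.22, adjusted p = 0.416) and Rspo4 (-0.54, adjusted p = 0.424) did not pass. Rnf43 rose (0.31, adjusted p = 0.0156), a call that was lost without Day 0 replicate 3 or 4 or control replicate 2 (up to 0.0725), and Znrf3 did not pass (0.25, adjusted p = 0.0651).

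Of 7 secreted antagonists tested 2 rose and 2 fell, against 22.6% and 17.7% of all genes. Sfrp1, which binds Wnt proteins through a Frizzled-like domain, stood at 164, 168, 151 and 127 CPM at Day 0 and 99, 102, 96 and 98.7 in controls. The controls lay within a few CPM of each other and below all Day 0 libraries (log2 fold change -0.62, SE 0.08, adjusted p = 2.91e-05). Wif1, another Wnt-binding inhibitor, went from 5.26, 4.62, 6.33 and 10.9 CPM at Day 0 to 11.8, 15.2, 18.1 and 15.5 in controls, a 2.19-fold rise (log2 fold change 1.13, SE 0.23, adjusted p = 0.00142), with Day 0 replicate 4 closest to the controls. Dkk3, a divergent Dickkopf, rose from 33, 37.3, 32.7 and 32.2 to 53.2, 58.4, 62.5 and 56.5 CPM (log2 fold change 0.77, SE 0.09, adjusted p = 1.89e-05). Dkk2, a Dickkopf that binds Lrp6, fell from 7.95, 6.05, 5.09 and 6.2 to 4.18, 4.29, 3.57 and 4.91 CPM (log2 fold change -0.59, SE 0.16, adjusted p = 0.0093). Day 0 and control libraries did not overlap for Wif1, Dkk3 or Dkk2. Sfrp2 (-0.36, adjusted p = 0.0551), Dkk1 (-0.07, adjusted p = 0.924, at most 0.83 CPM in these libraries) and Notum did not pass. Sfrp2 was called with DESeq2 and RLE scaling and without Day 0 replicate 4 or compression replicate 4, and its log2 fold change over the omissions ran from -0.50 to -0.19.

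Of the feedback genes Axin2, Notum, Nkd1, Nkd2, Znrf3 and Rnf43, Nkd2 and Rnf43 rose in controls and the others did not pass. Of all genes 22.6% rose and 17.7% fell. Axin2, a scaffold of the complex that degrades beta-catenin (chromosome 11, 108920349 to 108950783, plus strand), stood at 73.6, 69.4, 66.4 and 67.4 CPM at Day 0, 71.6, 77.3, 92.7 and 85.4 in controls and 70.9, 79.98, 79 and 94.2 under compression. Day 0 and control values overlapped only through control replicate 1, and the rise in the mean did not pass (log2 fold change 0.24, SE 0.09, adjusted p = 0.0543). It passed without control replicate 1 (adjusted p = 0.0333), without compression replicate 4 (0.0408) and with limma-voom (0.0049). Without control replicate 3 its log2 fold change was 0.16 (adjusted p = 0.228). Notum, an enzyme that strips the lipid from Wnt proteins, was at 19.7, 23.1, 19.98 and 19.4 CPM at Day 0 and 14.9, 20.5, 27.7 and 18.8 in controls, with equal means and a wider spread in controls (95% interval -0.35 to 0.35 on the log2 scale). The sign of its difference near 0 changed with the setting. Nkd1, an inhibitor of Dishevelled, averaged 67.3 ± 5.94 and 65.3 ± 6.55 CPM (-0.04, adjusted p = 0.782). Its relative Nkd2 rose (0.53, adjusted p = 0.0349), but not without Day 0 replicate 2, 3 or 4 or control replicate 2, 3 or 4 (up to 0.112).

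Among the genes that carry the signal into the nucleus, none rose and 2 of 5 fell, against 22.6% and 17.7% of all genes. Lef1 (chromosome 3, 131110471 to 131224356, plus strand), a DNA-binding partner of beta-catenin and itself a target, stood at 56.9, 62, 61.9 and 56.4 CPM at Day 0, 23.5, 31.1, 34.9 and 28.4 in controls and 33.8, 27.9, 26.8 and 34.2 under compression. The Day 2 libraries lay far below Day 0 in both groups, and the control mean was 2.01-fold lower (log2 fold change -1.01, SE 0.11, adjusted p = 1.69e-05). Tcf7l2, another partner, fell less (-0.37, adjusted p = 0.0119). Tcf7 (-0.20) and Tcf7l1 (-0.12), which often represses targets, did not pass, at adjusted p-values of 0.287 and 0.248. Ctnnb1 was at 1141, 1155, 1160.2 and 1152 CPM at Day 0 and 1070.4, 1108, 1061 and 1037 in controls. These groups did not overlap, yet the difference did not pass with edgeR (log2 fold change -0.11, SE 0.05, adjusted p = 0.13), and it passed with DESeq2 (adjusted p = 0.00378) and limma-voom (0.0344). All 6 endothelial markers fell over the same interval (median log2 fold change -2.56), where 17.7% of all genes did, and none was at 0 in any library. Their part in the Lef1 change was not tested. Exons of Lef1, Ctnnb1, Notum, Fzd5, Rspo3 and Sfrp2 overlap by over 10% with a gene on the other strand (for Notum 29.4%, with Notumos). Reads of such pairs cannot be told apart where the strand setting of the counts is unknown.

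**Figure D3:**
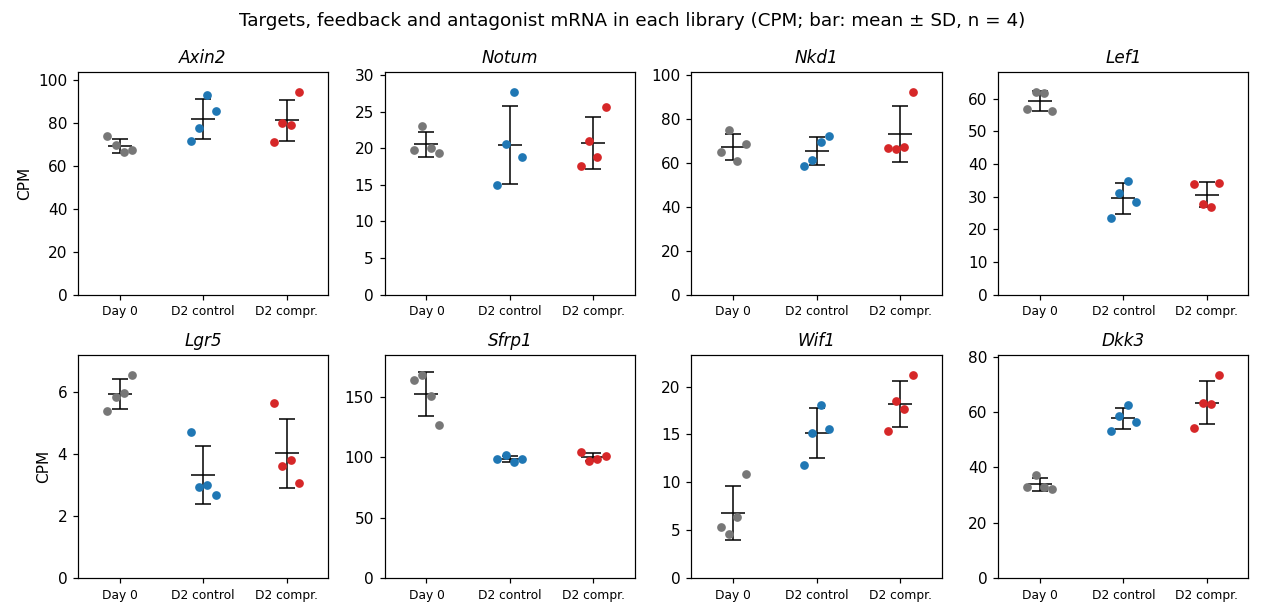
CPM of 8 feedback, target and antagonist genes (vertical axes, each from 0) in the 12 libraries by group (horizontal axes), with points for libraries and bars for mean ± SD (n = 4). Axin2, Notum and Nkd1 overlap between Day 0 and Day 2, Lef1, Lgr5 and Sfrp1 are lower in all controls than in all Day 0 libraries, and Wif1 and Dkk3 are higher.

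Promoter sequence from RefSeq (GRCm38.p6) was read for the members in the table of promoters, 40 of 60 by symbol, in windows from 250 bases before to 50 after an annotated start. The core bound by TCF/LEF factors was searched on both strands in 4 forms: TTCAAAG was 1, the other 3 begin with AT, AA or TA in place of its first letters, and no position can match more than 1 form. It was found near 7 members (Dkk1, Fzd7, Lef1, Tcf7l2, Wnt3, Wnt5b and Wnt11), or 17.5%, beside 18.95% of the 27025 genes in the table. The stretches below lie before the start and outside annotated exons. They are shown for Wnt11 and for an internal start of Lef1, which hold the core (in capitals, 51 and 147 bases before the start), and for Axin2, the standard target, and Wnt7a, the largest rise, whose windows hold none of the 4 forms.
Wnt11, chr7:98834862-98835111, plus strand: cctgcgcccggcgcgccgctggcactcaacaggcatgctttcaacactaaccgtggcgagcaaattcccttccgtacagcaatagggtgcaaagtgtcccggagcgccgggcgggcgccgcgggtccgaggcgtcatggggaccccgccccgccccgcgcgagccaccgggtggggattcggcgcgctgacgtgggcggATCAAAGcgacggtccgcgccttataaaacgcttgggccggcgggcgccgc
Lef1 (internal start), chr3:131156044-131156293, plus strand: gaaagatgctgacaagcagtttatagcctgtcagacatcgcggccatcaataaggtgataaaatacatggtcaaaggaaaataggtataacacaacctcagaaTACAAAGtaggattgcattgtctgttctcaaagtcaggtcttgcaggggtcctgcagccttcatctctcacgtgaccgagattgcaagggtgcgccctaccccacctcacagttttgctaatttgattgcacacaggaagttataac
Axin2, chr11:108920099-108920348, plus strand: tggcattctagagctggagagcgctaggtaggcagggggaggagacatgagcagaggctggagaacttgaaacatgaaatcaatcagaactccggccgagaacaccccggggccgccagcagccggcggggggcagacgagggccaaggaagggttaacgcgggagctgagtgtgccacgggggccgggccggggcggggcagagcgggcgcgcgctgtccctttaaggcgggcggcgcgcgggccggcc
Wnt7a, chr6:91411364-91411512, minus strand: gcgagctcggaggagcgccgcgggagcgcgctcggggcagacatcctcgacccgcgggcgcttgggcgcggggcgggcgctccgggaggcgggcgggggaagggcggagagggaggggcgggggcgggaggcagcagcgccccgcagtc
The Axin2 and Wnt7a stretches are GC-rich (69.2% and 82.5%), that of the internal Lef1 start is not (44.8%). A match is a run of letters and no evidence of binding, and a window without one says only that these letters are not in it.

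Compressed lungs were set against the same Day 0 libraries as the controls, so values are given side by side without an overlap count. Of the 48 genes 12 rose and 12 fell (25% each), against 26.6% and 22.5% of all genes tested, and their median log2 fold change was -0.01, beside 0.02 over all genes. The groups did not overlap for 11 members that were higher and 9 that were lower, against 23.5% and 19.5% of all genes. Wnt7a rose 15.6-fold (log2 fold change 3.96, SE 0.42, adjusted p = 8.42e-06) and Wnt5a, at 98.8, 103, 100.4 and 98.8 CPM, 1.68-fold (log2 fold change 0.75, SE 0.08, adjusted p = 6.47e-06). Wif1 rose 2.63-fold to 15.4, 18.5, 17.7 and 21.2 CPM (adjusted p = 0.00022). Wnt9a (0.95, adjusted p = 0.0016), Dkk3 (0.91, adjusted p = 3.6e-06) and Fzd1 (0.69, adjusted p = 0.00371, at 209.7, 289, 266 and 363 CPM against 136, 165, 181 and 219 at Day 0) completed the 6 largest rises with a mean of at least 1 CPM. Wnt9a stood at 6.39, 7.66, 7.23 and 7.19 CPM under compression and Dkk3 at 54.3, 63.2, 62.9 and 73.3, above all their Day 0 libraries. Lef1 (-0.95, adjusted p = 1.74e-05), Lgr4 (-0.73, adjusted p = 0.000102), Sfrp1 (-0.60, adjusted p = 2.54e-05), Wnt2 (-0.56, adjusted p = 0.000469) and Wnt7b (-0.40, adjusted p = 0.00612) fell, as did Fzd9 (-1.65, adjusted p = 0.000408). Lgr4 stood at 24.5, 20.2, 19.96 and 18.5 CPM under compression and Sfrp1 at 104, 97, 98.7 and 101, below all their Day 0 libraries.

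Wnt2b and Tcf7l2 were among the larger falls under compression. Wnt2b, a ligand of the outer mesenchyme and mesothelium, was at 20.2, 20.1, 14.6 and 12.3 CPM at Day 0 and 12.1, 9.82, 10.1 and 10.1 under compression (log2 fold change -0.66, SE 0.19, adjusted p = 0.01). Every compression library was below every Day 0 library, although the highest compression and the lowest Day 0 library were at 12.1 and 12.3 CPM. Tcf7l2 was at 54.1, 47.8, 53.1 and 51.2 CPM at Day 0 and 42.5, 30.9, 30.9 and 31.9 under compression (log2 fold change -0.60, SE 0.11, adjusted p = 0.000397). Lgr5 fell to 5.63, 3.6, 3.78 and 3.04 CPM (log2 fold change -0.57, SE 0.21, adjusted p = 0.0388), a call that was lost without Day 0 replicate 2, 3 or 4, without compression replicate 2, 3 or 4 and with compression replicates 2 and 3 summed, up to 0.0947. Dkk2, at 6.12, 5.45, 6.42 and 5.15 CPM, overlapped with Day 0 and did not pass (-0.13, adjusted p = 0.508), nor did Rnf43 (0.09, adjusted p = 0.426). Axin2 (0.23, adjusted p = 0.0561) and Ctnnb1 (-0.05, adjusted p = 0.423) did not pass, and the Notum difference lay near 0 (95% interval -0.33 to 0.37). Under compression Ctnnb1 was at 1045, 1141, 1128 and 1123 CPM and Notum at 17.5, 20.9, 18.7 and 25.7. Axin2 passed without compression replicate 1 (adjusted p = 0.0316) and with limma-voom (0.0138), and without compression replicate 4 its log2 fold change was 0.13 (adjusted p = 0.24). Rspo3 rose (0.49, adjusted p = 0.0267) but not without Day 0 replicate 3 or 4 or compression replicate 1 or 2 (up to 0.0793). Fzd3 (-0.51, adjusted p = 0.00752) and Sfrp2 (-0.64 to -0.34 over the omissions) fell under compression. Wnt4 rose (0.48 to 0.71 over the omissions). The calls of Fzd3, Sfrp2 and Wnt4 held in all 12 omissions and in all 7 other settings.

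Between the Day 2 groups the question was how a rigid surround bears on the pathway, and effects of restriction and of the crosslinking itself cannot be told apart. No member passed with edgeR, where 0% of all genes tested did. At an unadjusted p of at most 0.05 there were 4 of 48 members (8.33%), with Dkk2 and Wnt7b higher and Wnt2b and Rnf43 lower. That is below the share over all genes of 12.05%, of which 6.73% were higher and 5.32% lower. The groups did not overlap for 2 members, Dkk2 and Fzd6, both higher under compression, and for 0 that were lower. That is 4.17% of members, against 5.76% of all genes in either direction and 3.06% higher. The median log2 fold change of the 48 was 0.05 and that of all genes 0.00. DESeq2 called no member (0.414% of all genes) and limma-voom with quality weights called 5 (Dkk2 and Wnt5a higher, Rnf43, Tcf7l2 and Wnt2b lower), where it called 12.8% of all genes.

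Dkk2 had the smallest p. Its compression libraries were at 6.12, 5.45, 6.42 and 5.15 CPM and the controls at 4.18, 4.29, 3.57 and 4.91, so that the lowest compression library (5.15) lay just above the highest control (4.91) and within the Day 0 range (log2 fold change 0.45, SE 0.16, adjusted p = 0.366). Wnt2b averaged 10.5 ± 1.06 CPM against 14.8 ± 3.84 in controls (log2 fold change -0.50, SE 0.19, adjusted p = 0.376). Controls 1 and 2, at 15.7 and 19.9 CPM, lay above all compression libraries, control 3 (12.5) just above them and control 4 (11.3) among them. Without control replicate 2 the log2 fold change was -0.32. The summed mesothelial markers Wt1, Msln, Upk3b, Upk1b and Lrrn4 stood at 128 and 137 CPM in controls 1 and 2, 90.6 and 86.6 in controls 3 and 4 and 86.2 to 96.6 under compression, and their part in the Wnt2b difference was not tested. Taken singly, 3 of these 5 markers were lower under compression than in controls and 2 were higher (log2 fold changes from -0.90 to 0.43), and 0 passed. None of the 5 was at 0 in any library.

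Wnt7b stood at 87.1, 91.2, 86.4 and 109 CPM under compression and 63, 80.3, 90.3 and 78.7 in controls, where only control replicate 3 reached into the compressed range (log2 fold change 0.26, SE 0.11, adjusted p = 0.38). The log2 fold change was 0.17 without control replicate 1 and 0.14 with limma-voom. Rnf43 stood at 37.2, 34, 31.5 and 39.8 CPM under compression and 39.3, 47, 40.2 and 39.6 in controls (log2 fold change -0.22, SE 0.09, adjusted p = 0.388), with control replicate 2 the highest of its group. Tcf7l2 stood at 42.5, 30.9, 30.9 and 31.9 CPM under compression and 43.4, 43, 37.8 and 34.8 in controls (log2 fold change -0.23, SE 0.11, adjusted p = 0.415). Compression replicate 1, at 42.5 CPM, lay inside the control range and the other compression libraries at or below 31.9. Without that replicate the log2 fold change was -0.35 (adjusted p = 0.0824) and 12 members were at an unadjusted p of at most 0.05, and no member passed. Without control replicate 2 there were 2. Of all genes, 19 passed without compression replicate 1 and 0 without control replicate 2. The share of all genes at an unadjusted p of at most 0.05 was not worked out for these fits. The counts of 12 and 2 can therefore not be set against it. Without control replicate 4, the library with liver transcripts, the lowest adjusted p among members was 0.216, and with compression replicates 2 and 3 summed it was 0.64.

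Among the reference genes, Axin2, Lef1, Notum and Ctnnb1 gave differences near 0, though the interval of Notum was wider than the median of the 48 genes. For Axin2 the log2 difference was -0.01 (95% interval -0.21 to 0.19), for Lef1 0.06 (95% interval -0.19 to 0.30), for Notum 0.02 (95% interval -0.33 to 0.37) and for Ctnnb1 0.05 (95% interval -0.06 to 0.17). The signs of the first 3 changed when single libraries were left out. Wnt2 (-0.08, 95% interval -0.30 to 0.13) and Wnt5a (0.12, 95% interval -0.05 to 0.29) were bounded about as closely as Axin2. The remaining reference genes, Wnt7b (0.26, 95% interval 0.03 to 0.49) and Lgr5 (0.26), lay further from 0. Fzd6, at 39, 39.5, 39.5 and 39.3 CPM under compression and 37.8, 38, 36 and 32.6 in controls, was separated by a difference of 0.12 that did not pass (adjusted p = 0.705). The median half-width of the 95% interval over the 48 genes was 0.26 on the log2 scale. It was 1.05 for the widest, that of Rspo4, and Wnt7a (95% interval -0.59 to 0.82) and Lgr5 (95% interval -0.20 to 0.72) were also loosely bounded. These intervals come from the fit of all 12 libraries.

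**Figure D4:**
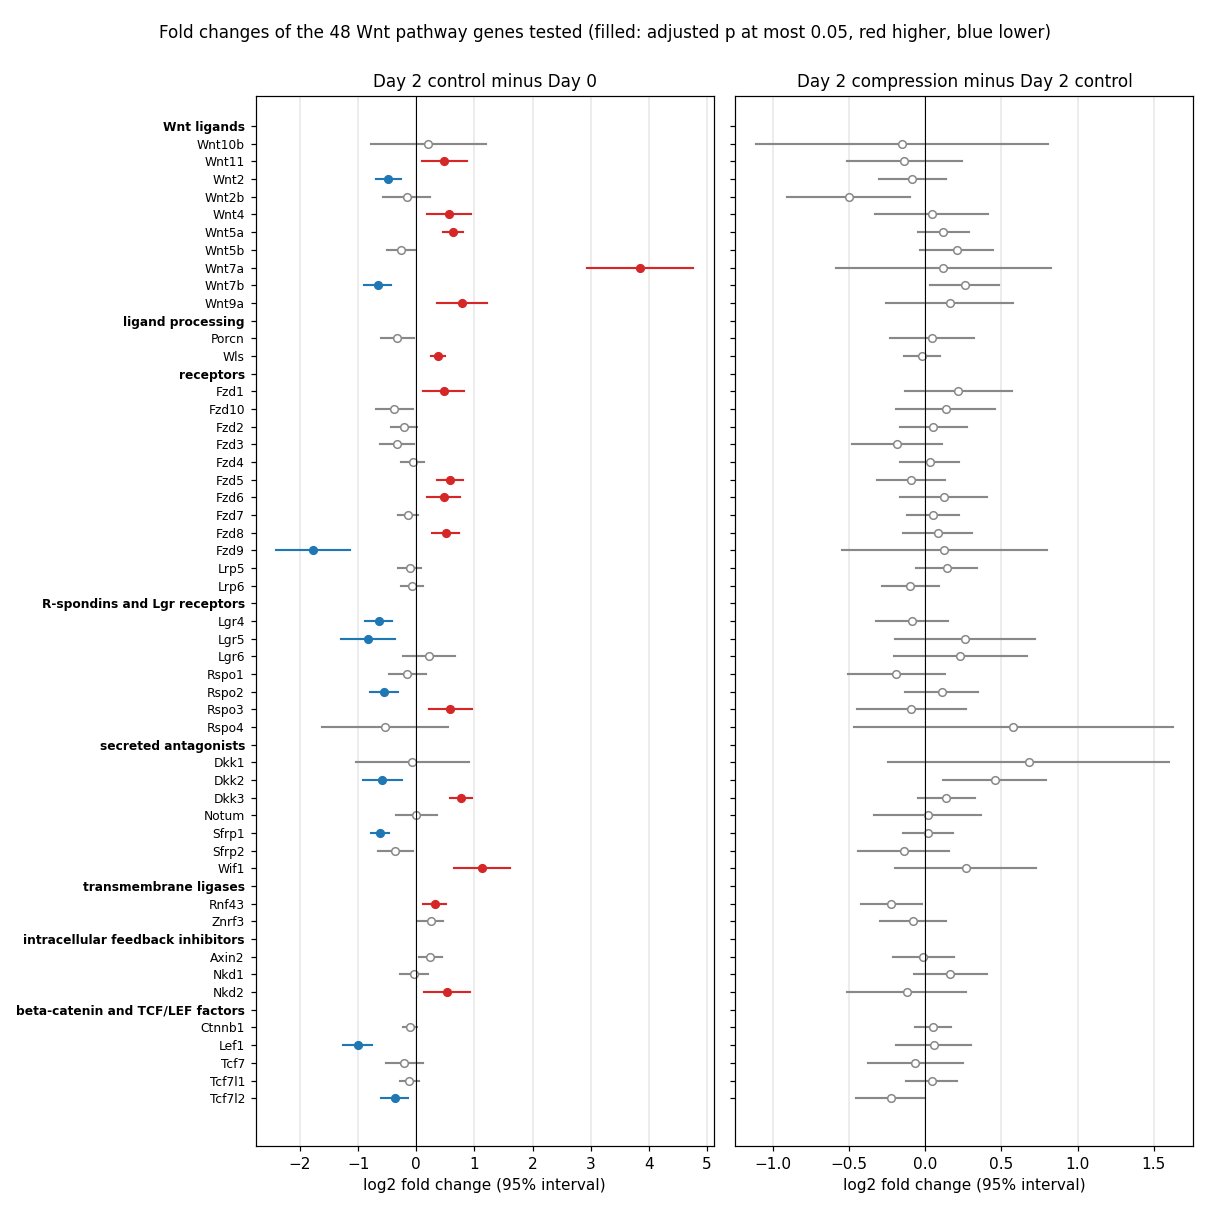
Log2 fold changes with 95% intervals (horizontal axes) of the 48 genes tested, ordered by role (vertical axis), for controls against Day 0 on the left and compression against control on the right, on different horizontal scales. On the left 15 genes are called higher and 10 lower, with Wnt7a at 3.84 and Fzd9 at -1.77; on the right none is called.

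Beyond the symbol rule, 81 other genes of the pathway in 4 lists were read from the same fit, of which 79 passed the filter. In controls against Day 0, 11 rose and 30 fell (13.9% and 38%, against 22.6% and 17.7% of all genes). Of 29 cytoplasmic and nuclear components none rose and 14 fell (48.3%, against 17.7% of all genes), and the median log2 fold change was -0.15, beside 0.02 over all genes. The log2 fold changes of the 29 ran from -0.66 to 0.24. Falls larger than the median were those of the Dishevelled gene Dvl3 (-0.45, adjusted p = 0.000661), the co-activator gene Bcl9 (-0.50, adjusted p = 3.05e-05) and the casein kinase gene Csnk1e (-0.59, adjusted p = 4.8e-06). So were those of the co-repressor gene Tle3 (-0.46, adjusted p = 0.000398) and of Ctnnbip1 (-0.66, adjusted p = 6.45e-05), an inhibitor of the beta-catenin complex. Of 17 alternative receptors and polarity genes 2 rose and 4 fell (11.8% and 23.5%, against 22.6% and 17.7% of all genes). The Wnt receptor genes Ror1 (-0.39, adjusted p = 0.00139) and Ror2 (-0.30, adjusted p = 0.0181) fell, and Ryk, also a Wnt receptor gene, rose (0.20, adjusted p = 0.00896).

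Other secreted or membrane modulators held the larger steps, with 4 of 18 higher and 7 lower in controls (22.2% and 38.9%, against 22.6% and 17.7% of all genes). Trabd2b, a membrane protease that inactivates Wnt proteins, rose from 21.1 ± 0.764 to 60.1 ± 1.94 CPM (1.51, adjusted p = 8.44e-09). Cthrc1, a secreted cofactor of non-canonical Wnt signalling, fell from 21 ± 2.2 to 5.2 ± 1.25 CPM (adjusted p = 1.13e-06). The Dkk receptor gene Kremen1 rose (0.37, adjusted p = 0.00151), and Ndp, which encodes the Frizzled ligand norrin, fell (-1.55, adjusted p = 0.000295). Of 15 other genes reported as targets 5 rose and 5 fell (33.3% each, against 22.6% and 17.7% of all genes). Myc fell (-0.97, adjusted p = 5e-05) and Cd44 rose (1.35, adjusted p = 1.42e-05), while Ccnd1 (-0.15, adjusted p = 0.0787) and Sp5 (-0.90, adjusted p = 0.0541) did not pass. In compression against control none of the 79 passed with edgeR and 7 were at an unadjusted p of at most 0.05 (8.86%). That is below the share over all genes, of which 6.73% were higher and 5.32% lower.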

How the data were processed

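The authors deposited raw read counts per gene symbol for 12 libraries, and per the submitters' processing notes fastp, STAR and the mm10 build were used. Per the labels' protocols, the RNeasy Micro kit gave total RNA, from which a KAPA mRNA HyperPrep kit gave libraries. Counting step, annotation and strand setting were not given in the sources used here. Counts were analysed with edgeR 4.0.16 in R 4.3.3: filterByExpr by group (min.count 10, min.total.count 15; 15246 genes kept), TMM scaling, 1 robust quasi-likelihood fit of all 12 libraries with group as the only term, and Benjamini-Hochberg adjustment over all genes tested, with 0.05 as the threshold. Alternatives were DESeq2 1.42.0, limma-voom (3.58.1) with quality weights, RLE scaling, no filter, a replicate block, only the 8 libraries compared, compression replicates 2 and 3 summed, and each library left out. The fits were tested on simulated data with the same dispersion for every gene, which checks the code and not the error rates in these libraries.

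The members and all lists were chosen with earlier results of these data known. Library values are given for members past the threshold or among the 5 smallest p in compression against control, for the 6 largest rises and falls that passed in each comparison with Day 0 (mean over 12 libraries at least 1 CPM), and for 8 reference genes (Axin2, Lef1, Ctnnb1, Wnt2, Wnt7b, Wnt5a, Lgr5 and Notum); other members may be named. Library values of Wls, Fzd6, Fzd9 and Wnt3a were added after they were seen. All 60 members matched GENCODE M21 (GRCm38, the assembly also called mm10) by symbol, which gave positions and exon lengths. Total counts of 13979871 to 33249761 per library put the floor of 3 counts at 0.0898 to 0.214 CPM. Of the markers fixed for mesothelium, Muc16 was not used here.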

Additional observations from a re-analysis of the deposited data

Results flagged for a closer look

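In 7 of 60 sets of 4 libraries (20 genes in 3 groups), 1 library lay far from the other 3. For independent sets of normally distributed values the rate would be about 1 in 20. The 20 genes were chosen partly by their values here, and their sets share libraries. The rate over all genes was not worked out, so the 7 cannot be read as an excess. Dkk3 in Day 0 replicate 2 stood at 37.3 CPM, above the other libraries of its group at 32.2 to 33. Lgr5 in Day 2 control replicate 1 stood at 4.7 CPM, above the other libraries of its group at 2.68 to 2.99. Notum in Day 0 replicate 2 stood at 23.1 CPM, above the other libraries of its group at 19.4 to 19.98. Rnf43 in Day 2 control replicate 2 stood at 47 CPM, above the other libraries of its group at 39.3 to 40.2. Rspo3 in Day 2 control replicate 2 stood at 15.7 CPM, above the other libraries of its group at 9.07 to 9.64. Tcf7l2 in Day 2 compression replicate 1 stood at 42.5 CPM, above the other libraries of its group at 30.9 to 31.9. Wnt2b in Day 2 compression replicate 1 stood at 12.1 CPM, above the other libraries of its group at 9.82 to 10.1. The Wnt2b and Tcf7l2 libraries are both compression replicate 1, and the Rnf43 and Rspo3 libraries both control replicate 2.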

How the results depend on the processing

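Leaving out 1 library at a time gave 10 to 15 members higher and 10 to 14 lower in controls against Day 0, and 11 to 13 and 11 to 14 in compression against Day 0. Of the called members, 19 of 25 and 22 of 24 were called in all 12 omissions and in every other setting run. In compression against control limma-voom called 2 members higher and 3 lower, where DESeq2 and every edgeR setting called 0; the cause was not tested. Whether the replicate numbers pair the samples is not known. Correlations of same-numbered libraries were -0.181 to 0.166 between compression and control and -0.141 to 0.108 between compression and Day 0. Between control and Day 0 they were 0.0487 to 0.112. The best match had the same number for 1, 1 and 2 of 4 libraries in these comparisons. Such weak values cannot settle the matter. With the replicate block, 15 rose and 12 fell in controls, 12 and 14 under compression, and no member was called between the Day 2 groups. The block took the call from Nkd2 and gave one to Fzd3, Porcn and Znrf3 in controls, and to Lrp6 and Porcn under compression. Among members without a call, 9 in controls (Axin2, Ctnnb1, Fzd2, Fzd3, Fzd10, Porcn, Sfrp2, Wnt5b and Znrf3) and 12 under compression, both against Day 0, were called in at least 1 other setting. The sign turned in at least 1 omission for 5 of 48 members in controls against Day 0, 7 in compression against Day 0 and 17 in compression against control, among them Axin2, Lef1, Notum and Wnt7a, in no case with a call in the same comparison. In compression against control the omissions gave -0.093 to 0.061 for Axin2, -0.038 to 0.16 for Lef1 and -0.11 to 0.21 for Notum, and limma-voom gave -0.15 for Lef1 and -0.15 for Notum. For Notum in controls against Day 0 the values were -0.019 with DESeq2, -0.018 with RLE scaling, -0.0081 without a filter, -0.018 with the replicate block, -0.016 in the 8 libraries compared, -0.017 with compression replicates 2 and 3 summed and -0.20 to 0.12 over the omissions. In compression against Day 0 they were -0.0017 with DESeq2, -0.00052 with RLE scaling and -0.12 to 0.073 over the omissions. Depth limits the 12 genes under the filter and Dkk1, Rspo4 and Wnt10b, which averaged under 1 CPM in every group.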
